A study of Mus musculus with 6 samples.

Results

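The comparison described here is that of t10,c12-CLA with DMSO in 3T3-L1 adipocytes that all received ritonavir. It rests on 2 of the 6 arrays of the study, chosen by their labelled treatment, namely the array labelled Ritonavir+t10,c12 and the array labelled Ritonavir+DMSO. 3T3-L1 is a mouse preadipocyte line that becomes fat cells in culture after hormonal induction. The cells of these 2 groups were given ritonavir, an HIV protease inhibitor, at 20 µM for 5 days during maturation in insulin-containing medium, together with t10,c12-CLA at 100 µM or with DMSO at 0.1% as the fatty acid vehicle. Of the other groups, ritonavir at 20 µM with c9,t11-CLA at 100 µM for 5 days belonged to the same experiment. Ritonavir at 20 µM alone, tenofovir at 1 µM and ethanol at 0.1%, each also for 5 days, formed an earlier experiment. For each group RNA of 4 replicate experiments was pooled and hybridised to 1 array. There is therefore no spread between replicates, no test of any difference, and no p-value below. Every value is a log2 RMA value of 1 array, and every difference, given in log2 units unless called a fold, is that of 2 single arrays.

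Conjugated linoleic acids (CLA) are linoleic acid isomers with adjacent double bonds, and c9,t11-CLA and t10,c12-CLA differ in where those bonds lie and in which of them is cis or trans. The t10,c12 isomer is known for lowering the fat content of adipocytes and of mice and for lowering the activity of PPARγ, the nuclear receptor that maintains the fat cell programme. Polyunsaturated fatty acids are also known ligands of PPARs and known inhibitors of the processing of SREBP1, a step by which cells activate genes of fatty acid synthesis.

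The cells carried adipocyte markers under both treatments. Adipoq, the adiponectin gene, had a log2 value of 13.08 on the t10,c12-CLA array, against 14.64 on the DMSO array, and the fatty acid binding protein gene Fabp4 had 14.62 and 14.92. Of 12386 detected genes, 97 (0.783%) stood 2-fold or more above DMSO with t10,c12-CLA and 130 (1.05%) 2-fold or more below it, together 227 (1.83%). A gene was called detected if it reached 6.55, the median of the whole table, on at least 1 of the 6 arrays. At 1.5-fold, 385 genes (3.11%) were higher and 491 (3.96%) lower, while the median difference of all detected genes was 0.02, with 52.8% above and 47.1% below 0. With values under the detection level raised to it, 88 (0.71%) and 115 (0.928%) remained 2-fold apart. As a scale for single array differences, the robust SD over genes was 0.235 for t10,c12-CLA minus DMSO, 0.136 for c9,t11-CLA minus DMSO and 0.113 for tenofovir minus ethanol. The last 2 comparisons had 1 and 0 genes at least 2-fold apart. Ritonavir with DMSO and ritonavir alone, from different experiments, were 2-fold apart at 608 genes (4.91%). These 2 arrays also differ in labelled DMSO, so experiment and DMSO cannot be told apart in that count. Values are best compared within an experiment. A DMSO dose is labelled for the control alone, so a difference in vehicle cannot be told apart from the fatty acid. The actin control probe sets, a sign of RNA quality, differed between the 3' and the 5' end by 0.28 on the t10,c12-CLA array, 0.54 on the c9,t11-CLA array and 0.38 on the DMSO array.

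**Figure D1:**
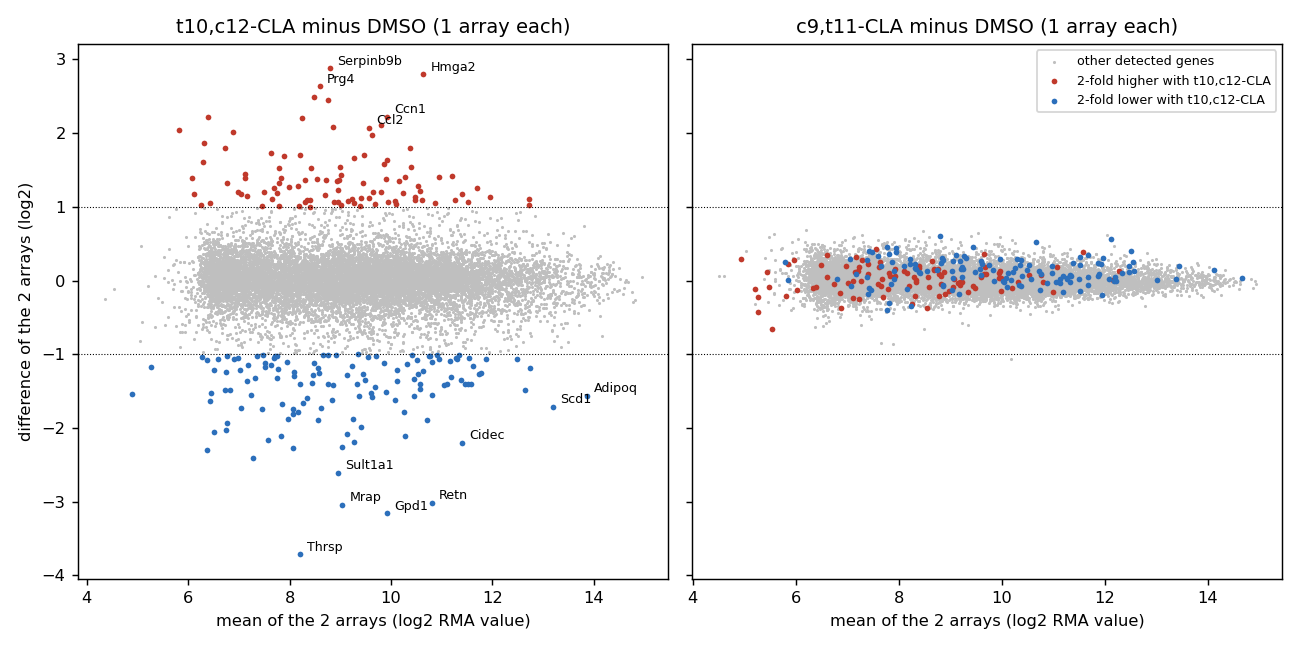
Difference of single arrays (log2, vertical axis) against the mean of the same 2 arrays (log2 RMA value, horizontal axis) for 12386 detected genes, for t10,c12-CLA minus DMSO at left and c9,t11-CLA minus DMSO at right. The 97 genes at least 2-fold higher with t10,c12-CLA (red) and the 130 at least 2-fold lower (blue) are coloured in both panels, and at right they lie between -0.66 and 0.61.

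Among genes above the detection level on both arrays, Gpd1 had the largest downward difference. Gpd1, the cytosolic glycerol phosphate dehydrogenase that supplies the backbone of triglyceride, had 8.34 on the t10,c12-CLA array, 11.85 on the c9,t11-CLA array and 11.50 on the DMSO array, so it was 8.95-fold lower with t10,c12-CLA than with DMSO. The c9,t11-CLA and DMSO values of Gpd1 lay close together and the t10,c12-CLA value far under both. A further Gpd1 probe set gave 7.25 with t10,c12-CLA and 7.34 with DMSO, at a lower level. Thrsp, the gene of the lipogenic nuclear protein Spot 14, had 6.34, 10.03 and 10.06 on the same 3 arrays. Its value with t10,c12-CLA lay under the detection level, so the difference of -3.72 is given as at least 11.3-fold lower. The other detected probe sets of Thrsp differed by -1.58 and -0.08. Mrap, the accessory protein of melanocortin receptors, was 8.25-fold lower, and the resistin gene Retn differed 8.09-fold, with 9.30 on the t10,c12-CLA array and 12.31 on the DMSO array.

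Next among the lower genes were the sulfotransferase gene Sult1a1 (-2.61), the secreted semaphorin gene Sema3g (-2.27), the FOXO1 corepressor gene Fcor (-2.26), the lipid droplet gene Cidec (-2.21) and Ffar2 (-2.20), which encodes a receptor for short-chain fatty acids. They were followed by the adipogenin gene Adig (-2.11), the respiratory chain gene Cox7a1 (-2.11), the ribonuclease gene Ear3 (-2.09), the carbonic anhydrase gene Car3 (8.42 against 10.41 with DMSO), the mitochondrial enzyme genes Tst and Adhfe1 (-1.89 each) and Slc2a4 (-1.88), the insulin-responsive glucose transporter. Each of these 12 genes was measured above the detection level on both arrays. Ear3 belongs to a family of near-identical genes and its probe set is of a kind that can bind relatives, so its identity is uncertain. Among genes that ended under the level with t10,c12-CLA, Cox8b was at least 4.31-fold lower, Tmem182 at least 3.82-fold, the FGF21 co-receptor gene Klb at least 2.74-fold, Fam107a at least 2.55-fold and Cmbl at least 2.45-fold. Averaging probe sets left Klb at -0.42 and Car3 at -0.86, and the Fam107a probe set without a cross-hybridising suffix differed by -0.83.

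The largest upward difference was that of Serpinb9b, a serine protease inhibitor gene, with 10.24 on the t10,c12-CLA array, 7.44 on the c9,t11-CLA array and 7.36 on the DMSO array. Hmga2, an architectural chromatin protein of growing mesenchymal cells, had 12.04, 9.22 and 9.24, a 6.96-fold difference from DMSO, and its 3 detected probe sets differed by 2.80 to 2.88. For both genes the c9,t11-CLA array differed from the DMSO array by 0.08 or less. Prg4, which encodes the lubricating proteoglycan lubricin, was 6.22-fold higher with 9.91 against 7.28 with DMSO, the glutathione transferase gene Gsta2 was 5.64-fold higher with 9.73 against 7.24, and Prkg2, a cGMP-dependent kinase gene, was 5.46-fold higher with 9.97 against 7.52.

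Among the other higher genes, the matricellular gene Ccn1 was 4.66-fold higher, and all 4 of its detected probe sets differed by at least 1.92. The chemokine genes Ccl8, Ccl2 and Ccl7 were 4.59-, 4.21- and 3.94-fold higher. The surface protein gene Tm4sf1 differed by 2.12, the protein C receptor gene Procr by 2.09, the annexin gene Anxa3 by 1.79, the EGF receptor ligand gene Ereg by 1.73, and the matrix genes Thbs1 and Ecm1 by 1.70 each. Of genes that lay under the detection level with DMSO, S100a7l2 was at least 2.52-fold higher, Acsbg1 at least 2.42-fold, Gprin3 at least 2.40-fold, the neurotrophic factor gene Gdnf at least 2.10-fold, Cd93 at least 2.09-fold and Alpi at least 2.05-fold. A second Cd93 probe set differed by only 0.71.

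**Figure D2:**
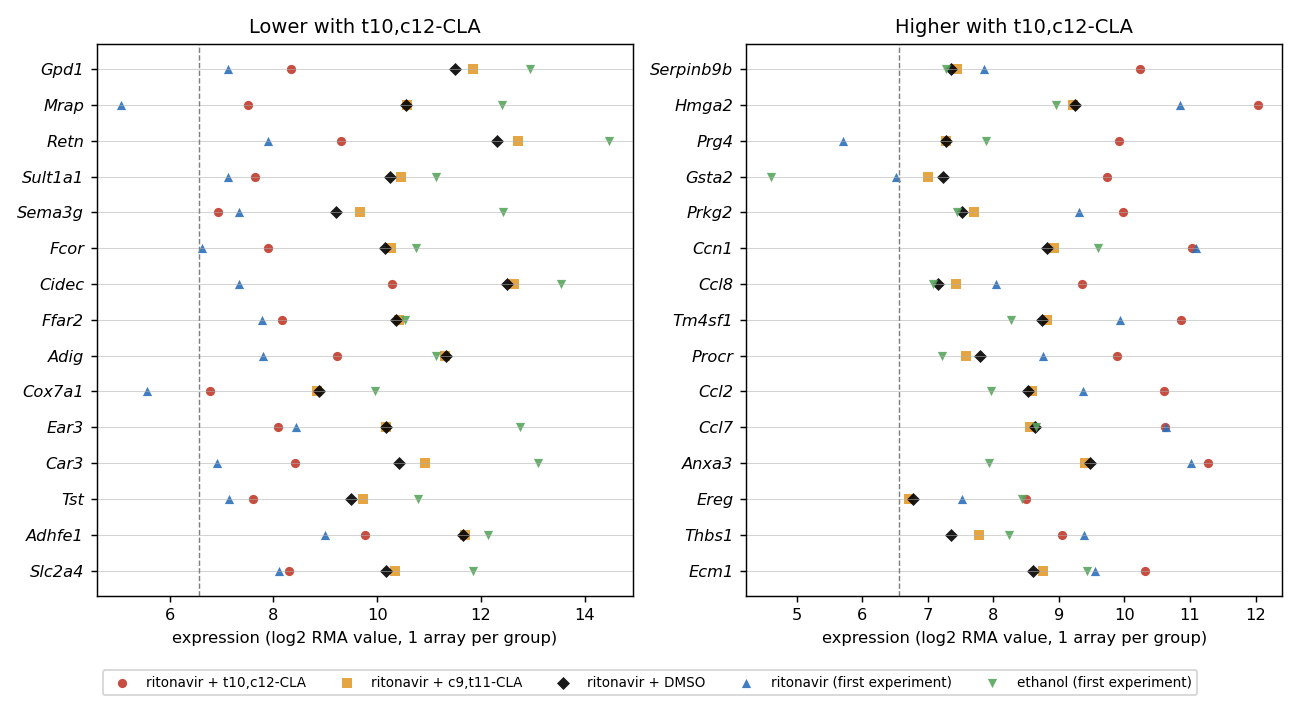
Expression (log2 RMA value, horizontal axis) on 5 arrays of the 15 genes with the largest downward (left) and the 15 with the largest upward (right) difference between t10,c12-CLA and DMSO among those above the detection level (dashed line, 6.55) on both. Each symbol is 1 array of pooled RNA. On every row of both panels the c9,t11-CLA and DMSO symbols lie no more than 0.52 apart. The t10,c12-CLA symbol stands apart from these symbols, though not on every row from that of ritonavir alone.

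Transcription factors that build the fat cell had a median near 0 as a group. Of 22 detected adipogenic factors 1 reached 1.5-fold upward and 4 downward, against 3.11% and 3.96% of all genes. In each direction 1 passed 2-fold, against 0.783% and 1.05% of all genes, and the median was -0.06. The 4 lower ones included the central regulators. Pparg had 11.25 with t10,c12-CLA, 12.09 with c9,t11-CLA and 11.89 with DMSO, a difference of -0.63 from DMSO. Cebpa, its partner in maintaining adipocyte genes, had 10.65, 11.86 and 11.49 (-0.85). Nr1h3, the oxysterol receptor LXRα, also differed by -0.85, and Klf15, a late adipogenic factor, by -1.40. Klf5, which acts early in adipogenesis, was 1.28 higher, whereas Cebpb (0.08) and Srebf1 (-0.35) differed less.

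Mature adipocyte markers were mostly lower. Of 19 detected, 17 lay below 0 and 9 by 2-fold or more, against 47.1% and 1.05% of all genes. In the other direction 0 were 2-fold higher, against 0.783% of all genes, and the list's median was -0.96. Adipoq differed by -1.56 and the hormone-sensitive lipase gene Lipe by -1.07. The mean over the probe sets of Lipe, only 1 of which reached the detection level on either array, gave -0.49. Fabp4 (-0.30), the lipoprotein lipase gene Lpl (-0.26) and the fatty acid transporter gene Cd36 (-0.22) differed less than 1.5-fold, and the brightest Fabp4 probe set without a cross-hybridising suffix differed by 0.04. Among the adipokines, 18 of which were detected, 3 lay 2-fold or more below DMSO, namely Retn, Adipoq and the apelin gene Apln (-1.16), and 1 above it, Angptl4 (1.13). Of all genes 1.05% lay as far below DMSO and 0.783% as far above it. Leptin (Lep) lay under the detection level on all 3 arrays of this experiment, at 4.80, 5.04 and 5.37.

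Most markers of preadipocytes and fibroblasts, but not all, differed in the opposite direction. Of 22 detected, 18 lay above 0 and 4 below, against 52.8% and 47.1% of all genes. At 1.5-fold 12 were higher and 2 lower, against 3.11% and 3.96% of all genes, and the median was 0.62. The 12 higher genes included Ccn5 (1.37), the myosin light chain gene Myl9 (1.11), S100a4 (1.10), the smooth muscle actin gene Acta2 (1.02), Tagln (0.76), the surface marker gene Thy1 (0.67) and the vimentin gene Vim (0.61). With probe sets averaged Acta2 was at 0.49. The preadipocyte gene Dlk1 differed by 0.32, less than 1.5-fold, and Wnt5a (-0.78) and Fgf10 (-0.61) were lower. The summed linear level of this list was 56524 on the t10,c12-CLA array, 37422 on the c9,t11-CLA array and 35325 on the DMSO array, and that of the mature adipocyte list was 91309, 147150 and 141244. In RNA from whole cultures fewer mature cells and less adipocyte RNA per cell cannot be told apart, and the part of cell composition in the differences above was not tested.

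Genes of cholesterol synthesis and uptake ran in a single direction. SREBP2, which activates them when sterols are scarce, is itself encoded by Srebf2. All 21 detected members of the list lay below 0, 18 by 1.5-fold or more and 9 by 2-fold or more, against 47.1%, 3.96% and 1.05% of all genes. The list's median was -0.99, while with c9,t11-CLA the median was 0.02 and 11 of the 21 lay above 0, against 52.3% of all genes. Idi1, an isomerase of the isoprenoid step, had 10.04 with t10,c12-CLA, 11.45 with c9,t11-CLA and 11.59 with DMSO (-1.56). Pmvk, the phosphomevalonate kinase gene, had 8.62, 10.02 and 10.02 (-1.41), and Hmgcs1, which makes HMG-CoA, had 11.96, 12.81 and 12.76 (-0.80). In these genes the c9,t11-CLA and DMSO values differed by 0.14 or less, and t10,c12-CLA lay lowest. The later sterol genes Lss (-1.23), Cyp51 (-1.21), Msmo1 (-1.16) and Dhcr7 (-1.14) and the SREBP regulator Insig1 (-0.96) ran the same way, and Srebf2 (-0.40) and Insig2 (-0.01) differed less than 1.5-fold. Squalene synthase, Fdft1, differed by -1.09, while 2 dimmer probe sets of it near the detection level were 0.36 higher and the mean over its probe sets was -0.33. Averaging also ended the 2-fold differences of Lss (-0.98) and Msmo1 (-0.73).

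Promoter windows of 3 of these genes are shown because the group moved together and SREBP2 is known to act at such promoters with the factor NF-Y. Each spans the RefSeq transcript start, build GRCm38.p6, on the gene's strand, with capitals for the NF-Y box CCAAT on either strand and for TCACCCCAC, a core of the sterol regulatory element, also searched on both strands. The 3 windows all hold matches and do not stand for the list, in which that of Mvk (-0.69) has the most NF-Y boxes, 5. Windows without either match, which Pmvk, Dhcr7 and Insig2 have among theirs, are not shown.
Hmgcs1 (chr13:119690101-119690400, + strand): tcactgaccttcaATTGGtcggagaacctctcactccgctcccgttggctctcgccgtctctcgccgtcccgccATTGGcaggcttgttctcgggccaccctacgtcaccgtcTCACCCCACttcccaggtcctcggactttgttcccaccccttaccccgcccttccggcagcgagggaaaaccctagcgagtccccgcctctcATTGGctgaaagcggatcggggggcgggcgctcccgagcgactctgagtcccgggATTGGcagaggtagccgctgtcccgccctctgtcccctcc
Idi1 (chr13:8885356-8885655, + strand): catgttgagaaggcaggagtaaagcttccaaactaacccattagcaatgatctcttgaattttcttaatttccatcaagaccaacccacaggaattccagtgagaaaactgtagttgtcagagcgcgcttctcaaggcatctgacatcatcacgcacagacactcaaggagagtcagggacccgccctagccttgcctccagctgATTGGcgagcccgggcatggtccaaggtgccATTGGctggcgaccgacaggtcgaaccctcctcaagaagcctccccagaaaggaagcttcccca
Mvk (chr5:114444019-114444318, + strand): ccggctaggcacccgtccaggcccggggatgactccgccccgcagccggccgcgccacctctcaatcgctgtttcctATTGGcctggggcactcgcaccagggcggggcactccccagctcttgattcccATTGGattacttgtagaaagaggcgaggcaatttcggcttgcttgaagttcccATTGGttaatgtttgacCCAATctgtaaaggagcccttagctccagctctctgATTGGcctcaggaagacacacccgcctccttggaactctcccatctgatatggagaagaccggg
The NF-Y box was found in 17 of 22 windows (77.3%) of 17 detected list members with an entry, against 37.4% of all 32851 windows of this length. It was also found in 22 of 36 windows (61.1%) of the ATF4 and CHOP targets and 18 of 37 (48.65%) of the NRF2 targets, 2 lists described below. TCACCCCAC was found in 1 of the 22 windows, that of Hmgcs1, where it overlaps no NF-Y box, and in 0.551% of all windows. The boxes are matches of letters and not measured sites.

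Genes of fatty acid synthesis and desaturation were lower in part. Of 22 detected genes 6 were at least 2-fold and 11 at least 1.5-fold lower, against 1.05% and 3.96% of all genes. None reached 1.5-fold upward (0 of 22), against 3.11% of all genes, and the median was -0.57, against 0.07 with c9,t11-CLA. The 11 included Scd3, under the detection level on both arrays, and with raised values the median was -0.48. Scd1, the main stearoyl-CoA desaturase, had 12.33 with t10,c12-CLA, 14.18 with c9,t11-CLA and 14.04 with DMSO (-1.71). Fasn, the fatty acid synthase gene, had 11.34, 12.67 and 12.41 (-1.07). Fads2, the delta-6 desaturase of polyunsaturated fatty acid synthesis, had 10.33, 11.98 and 11.74 (-1.41). In each the t10,c12-CLA array was the lowest of the 3 and the c9,t11-CLA array the highest. The acetyl-CoA synthetase gene Acss2 (-1.78), Pnpla3 (-1.22), Fads1 (-0.83), Scd2 (-0.82), Elovl6 (-0.70) and Acaca (-0.62) were also lower, Pnpla3 ending under the detection level, whereas Fads3 (0.29) had the highest difference of the list. The NF-Y box was found in 14 of 24 promoter windows (58.3%) of this list, and TCACCCCAC in 0.

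**Figure D3:**
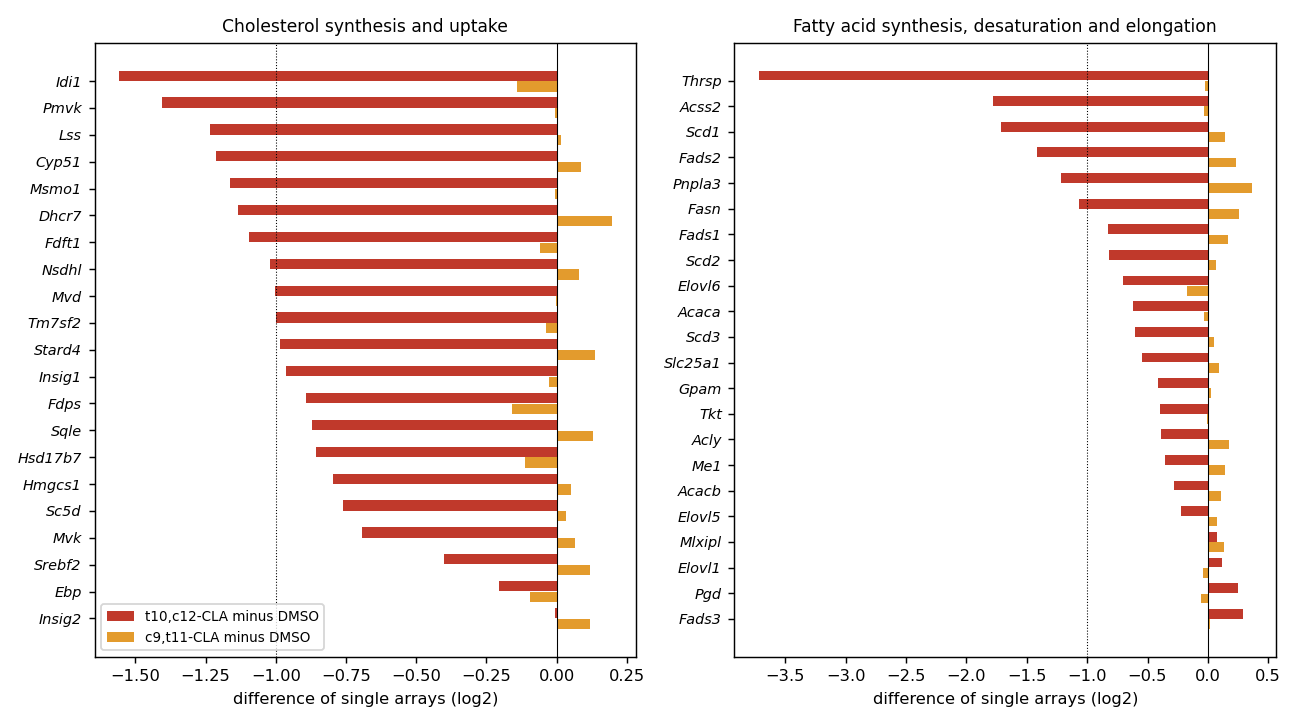
Differences from the DMSO array (log2, bars from 0, 1 array per group) of the detected genes of cholesterol synthesis and uptake (left, 21 genes) and of fatty acid synthesis, desaturation and elongation (right, 22 genes), t10,c12-CLA in red above c9,t11-CLA in orange. All 21 red bars at left run below 0, with a median of -0.99, and the orange bars lie between -0.16 and 0.20.

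Most triglyceride and lipid droplet genes lay below DMSO, 12 of 17 detected, against 47.1% of all genes, with 5 above it and a median of -0.76. Of the 17, 6 lay 2-fold or more below and 0 as far above, against 1.05% and 0.783% of all genes. Raising values to the detection level left 5 and a median of -0.46, with Pck1 under that level on both arrays. Besides Gpd1 and Cidec the 5 included the phosphatidate phosphatase gene Lpin1 (-1.33), the seipin gene Bscl2 (-1.19, or -0.89 with its probe sets averaged) and the acyltransferase gene Agpat2 (-1.07), and the final acyltransferases Dgat2 (-0.92) and Dgat1 (-0.76) were lower as well. The droplet coat gene Plin2, a PPAR target present in most cells, was the only detected member 1.5-fold or more above DMSO, at 14.18 with t10,c12-CLA, 13.45 with c9,t11-CLA and 13.44 with DMSO (0.74). Of 8 detected lipolysis genes 4 were at least 2-fold lower, against 1.05% of all genes, among them G0s2 (-1.40), an inhibitor of the triglyceride lipase, Pde3b (-1.27), the phosphodiesterase by which insulin restrains lipolysis, and the nicotinic acid receptor Hcar2 (-1.10). The triglyceride lipase gene itself, Pnpla2, differed by -0.96. Fatty acid uptake and binding had 0 of 15 genes 2-fold apart, against 1.83% of all genes. Its median was -0.26, with Fabp5 (-0.76) and Acsl3 (-0.67) lowest.

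Within fatty acid oxidation, a few known PPAR targets were higher. Pdk4, a kinase that restrains pyruvate oxidation, had 11.17 with t10,c12-CLA, 9.99 with c9,t11-CLA and 9.96 with DMSO (1.21). Cpt1a, which controls entry of fatty acids into mitochondria, had 11.04, 10.04 and 9.91 (1.13). Angptl4, a secreted inhibitor of lipoprotein lipase, had 12.51, 11.77 and 11.39 (1.13), so that here c9,t11-CLA lay between the others. These were the 3 of 22 detected members at least 2-fold higher, against 0.783% of all genes, and 0 were 2-fold lower, against 1.05%. The acyl-CoA thioesterase gene Acot1, under the detection level with DMSO, differed by 0.79. The isomerase gene Eci1 was lowest at -0.59, and the list's median was -0.18, with 13 of 22 genes below 0, against 47.1% of all genes. Angptl4 was just under 2-fold with its probe sets averaged (0.99) and at 0.86 in the probe set without a cross-hybridising suffix.

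Respiratory chain genes were slightly and uniformly lower. All 30 detected oxidative phosphorylation genes lay below 0, against 47.1% of all genes, between -0.60 and -0.16, with a median of -0.32, against 0.00 with c9,t11-CLA. Of the 30, 0 were 2-fold apart, against 1.83% of all genes. All 6 detected brown and beige markers were below 0, against 47.1% of all genes, including Ppargc1b (-0.59) and Prdm16 (-0.26, and -0.26 with c9,t11-CLA). The other 9 with a probe set, Ucp1 among them, were not detected on any array. In insulin signalling and glucose uptake 3 of 21 genes were at least 2-fold lower, against 1.05% of all genes, namely Slc2a4, Pde3b and Pck1, the last of which lay under the detection level on both arrays, and Gys1 (-0.73) and Pik3r1 (-0.65) were lower. Of 25 hypoxia and glycolysis genes 3 were at least 2-fold lower, against 1.05% of all genes, the glycolytic regulator Pfkfb3 (-1.87), Ankrd37 (-1.59) and the prolyl hydroxylase gene Egln3 (-1.41), and the median was -0.19. With probe sets averaged Pfkfb3 was at -0.93.

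Inflammatory genes were higher in a subset led by monocyte chemokines. Of 34 detected genes 5 lay 2-fold or more above DMSO and 0 below, against 0.783% and 1.05% of all genes. At 1.5-fold 10 lay above and 2 below, against 3.11% and 3.96% of all genes, and the median was 0.22. The 10 included Il33, under the detection level on both arrays, and with raised values the median was 0.14. Ccl2, the monocyte chemoattractant, had 10.61 with t10,c12-CLA, 8.59 with c9,t11-CLA and 8.54 with DMSO. Ccl7 had 10.62, 8.56 and 8.64, and Ccl8 had 9.35, 7.43 and 7.15. In all 3 genes the c9,t11-CLA and DMSO arrays were at most 0.28 apart. Csf1, the macrophage growth factor gene, was 1.17 higher, the neutrophil chemokine gene Cxcl5 1.09, the prostaglandin synthase gene Ptgs2 0.80, Ccl5 0.77, Cxcl1 0.73 and Il6 0.67. Il6 lay near the detection level, with 7.59, 6.36 and 6.92. Tnfaip6 (-0.90) and haptoglobin, Hp (-0.71), were lower, and Saa3 differed by -0.11. Csf1 lost its 2-fold difference when its probe sets were averaged (0.96).

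Macrophage markers were set beside the chemokines. Of 13 with a named probe set 5 were detected, while Adgre1, Itgam and Ptprc reached the detection level on none of the 6 arrays. Cd68, a lysosomal protein that is also made outside macrophages, had 10.10 with t10,c12-CLA, 8.11 with c9,t11-CLA and 8.43 with DMSO. The other detected markers differed from DMSO by 0.43 (Cd14), 0.15 (Csf1r), -0.22 (Lyz2) and -0.25 (Fcgr1). The summed linear level of the list was 2372, 1354 and 1474 on these arrays. The part of macrophages in the chemokine differences was not tested. Of 21 interferon-stimulated genes 19 lay above 0 and 6 reached 1.5-fold upward, against 52.8% and 3.11% of all genes, led by Oasl2 (0.97), Ifit2 (0.92) and Ifit1 (0.85). Their median was 0.31, against 0.09 with c9,t11-CLA.

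Matrix and matricellular genes were higher at selected members. Of 43 detected, 6 lay 2-fold or more above DMSO, 5 of them also with raised values, and 0 below, against 0.783% and 1.05% of all genes, and the median was 0.23, against 0.12 with c9,t11-CLA. Ccn1 had 11.03 with t10,c12-CLA, 8.93 with c9,t11-CLA and 8.81 with DMSO. Timp1, an inhibitor of matrix metalloproteinases, had 11.16, 9.71 and 9.62 (1.54), and Thbs1, the thrombospondin gene, had 9.06, 7.78 and 7.35. The collagenase gene Mmp13 was 1.25 higher and the crosslinking enzyme gene Lox 1.07, or 0.72 with its probe sets averaged. Ccn2, at 7.09, 5.05 and 5.48, crossed the detection level with t10,c12-CLA alone, which leaves a difference of only 0.53 against that level. Col15a1 (-0.99) and Nid2 (-0.67), both of basement membranes, were lower. In the TGF-beta, activin and BMP list 1 of 23 genes was at least 2-fold higher and 2 lower, against 0.783% and 1.05% of all genes. The higher one was the activin subunit gene Inhba (1.06), and the lower ones were the other subunit gene Inhbb (-1.53) and Id4 (-1.01). Inhbb lay under the level with t10,c12-CLA, and its second probe set differed by 0.29. With probe sets averaged Inhba was at 0.64 and Id4 at -0.88. Grem1 (0.94), Id3 (0.90) and Fstl1 (0.85) were higher. The Wnt list had a median of 0.01, with Ccn5 and Ccn4 (0.95) highest.

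Antioxidant genes under control of NRF2, the sensor of electrophiles, were higher in part. Of 33 detected 8 were at least 1.5-fold higher and 0 lower, against 3.11% and 3.96% of all genes, and the median was 0.27, against -0.05 with c9,t11-CLA. Gclm, a subunit of the enzyme that limits glutathione synthesis, had 13.00 with t10,c12-CLA, 11.95 with c9,t11-CLA and 12.08 with DMSO (0.92). The cystine importer gene Slc7a11 had 8.11 with t10,c12-CLA and 7.16 with DMSO (0.95), and the quinone reductase gene Nqo1 had 9.60, 8.92 and 8.71 (0.89). The t10,c12-CLA array was the highest of the 3 in each. Gsta4 and Txnrd1 (0.68 each), Srxn1 (0.66) and Ugdh (0.61) followed, Hmox1 differed by 0.50, and Sod2 (-0.55) was lowest. Gsta2 was measured by a probe set shared among its transcripts, and its family has near-identical members. Of 13 heat shock genes 3 were at least 1.5-fold higher, against 3.11% of all genes, namely Hspb1 (1.11), Cryab (0.76) and Hsph1 (0.66), with a median of 0.21. The antioxidant response element core TGACNNNGC, searched on both strands, was found in 9 of 37 promoter windows (24.3%) of the NRF2 list, against 12.4% of all windows. The share was higher, 11 of 36 (30.6%), in the list of ATF4 and CHOP targets described next. It was 4 of 22 (18.2%) in the cholesterol list and 4 of 24 (16.7%) in the fatty acid synthesis list.

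Genes of the integrated stress response differed little. Of 39 detected ATF4 and CHOP targets 1 was at least 1.5-fold higher and 3 lower, against 3.11% and 3.96% of all genes, and the median was -0.06. The higher gene was Slc7a11, and the lower ones were Vegfa (-0.79), Cth (-0.73) and Sesn2 (-0.71). Ddit3, the CHOP gene, had 13.41 with t10,c12-CLA, 13.39 with c9,t11-CLA and 13.58 with DMSO. Atf3 (0.09), Chac1 (0.06), Asns (-0.05) and Trib3 (-0.44) differed less than 1.5-fold. ER chaperone and unfolded protein response genes had a median of -0.08 over 24 genes, with Xbp1 (-0.72) lowest and Pdia3 (0.34) highest. In the ATF4 and CHOP list the amino acid response element TTGCATCA was found in 8 of 36 promoter windows (22.2%), against 0.895% of all, and the composite TGATGNAAT in 4 (11.1%), against 0.965%; the letters of both overlap on opposite strands where N is C.

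In the cell cycle list, with a median of -0.05 over 34 genes, 1 gene lay 2-fold or more above DMSO and 1 below, against 0.783% and 1.05% of all genes. The cyclin D1 gene Ccnd1 had 10.97 with t10,c12-CLA, 9.62 with c9,t11-CLA and 9.57 with DMSO (1.40), and the CDK inhibitor gene Cdkn2c had 10.25, 11.68 and 11.35 (-1.10). The same list had a median of 0.36 with c9,t11-CLA, where 32 of 34 genes lay above 0, against 52.3% of all genes. In the proteasome list 23 of 31 genes lay above 0, against 52.8% of all genes, with a median of 0.14, while the immunoproteasome subunits Psmb9 (-0.70) and Psmb8 (-0.65) were the lowest, and Psmd2 (0.35) the highest. The lysosome and autophagy list had its median at 0.09, with Gla (0.84) and Ctsk (0.70) at least 1.5-fold higher. In xenobiotic metabolism 3 of 20 genes were at least 2-fold lower, against 1.05% of all genes, namely Sult1a1, the carboxylesterase gene Ces1d (-1.68) and Adh1 (-1.27). The aryl hydrocarbon receptor gene Ahr (0.99) and Adh7 (0.98) were higher. The retinaldehyde dehydrogenase gene Aldh1a1 (1.39) and the prostaglandin receptor gene Ptger4 (1.03) lay under the detection level with DMSO and differ by only 0.22 and 0.21 against it. The eicosanoid and retinoid list had a median of -0.02 over 18 genes and, besides these 2, had Ptgs2 and the retinoic acid hydroxylase gene Cyp26b1 (0.60) highest. Endothelial, muscle, bone and cartilage, and epithelial markers had medians between -0.03 and 0.01 over 3 to 7 detected genes, of which Krt18 (-0.63), under the level on both arrays, alone was 1.5-fold apart.

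**Figure D4:**
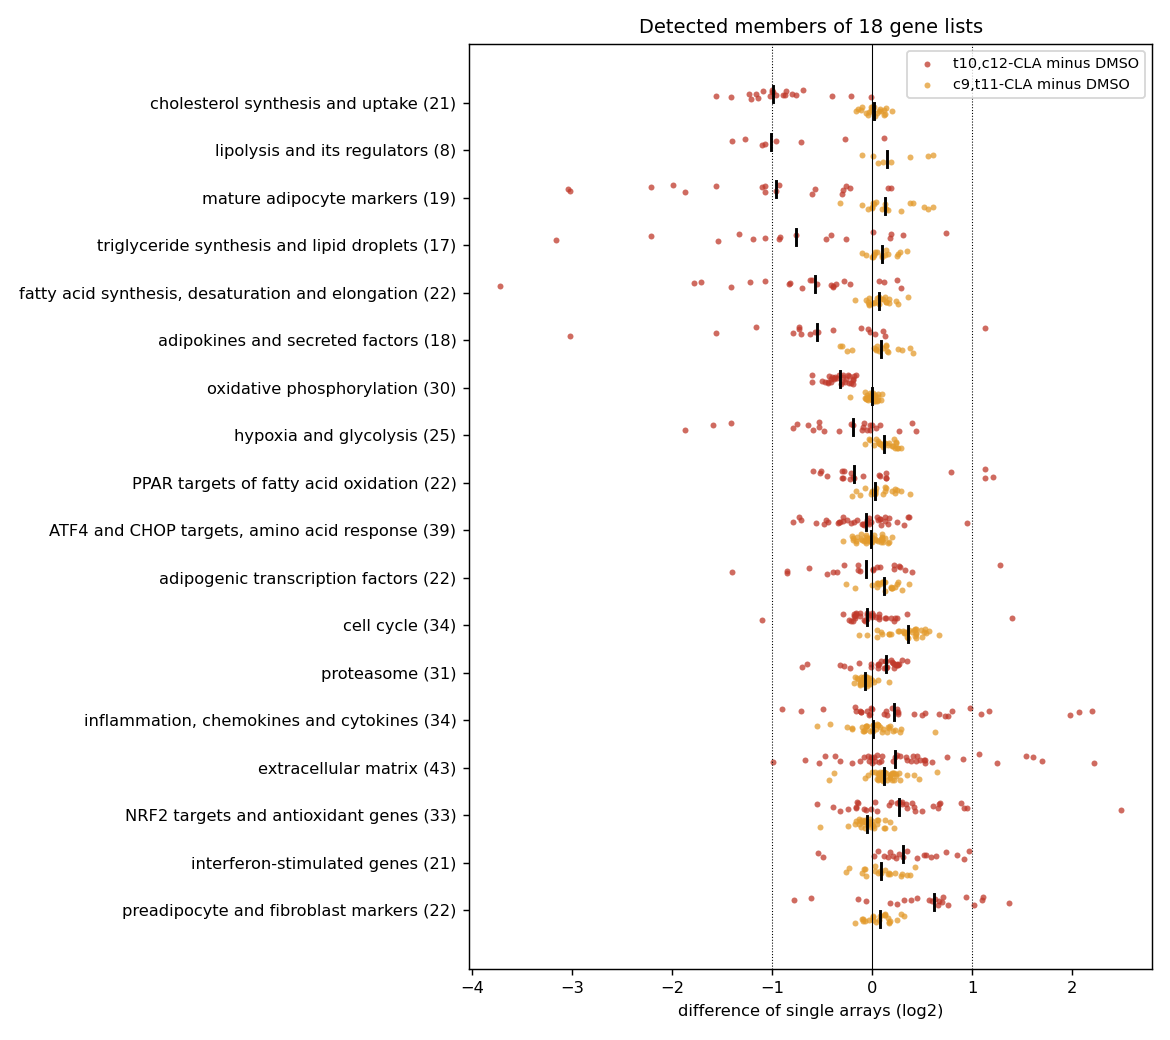
Differences from the DMSO array (log2, horizontal axis) of the detected members of 18 gene lists, t10,c12-CLA in red above c9,t11-CLA in orange, 1 point per gene with the median as a black bar and the number of genes in brackets. The red medians run between -1.01 for lipolysis and 0.62 for preadipocyte and fibroblast markers, and the orange medians between -0.07 and 0.36.

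The isomers were compared at the same dose and time. This comparison shares the t10,c12-CLA array with the one above and the DMSO array is common to both isomers, so values are set side by side only. On the t10,c12-CLA array 118 genes (0.953%) lay 2-fold or more above the c9,t11-CLA array and 189 (1.53%) as far below it. Against DMSO, c9,t11-CLA had 0 genes 2-fold above and 1 below (0.00807%). Over the 97 genes at least 2-fold higher with t10,c12-CLA, the differences of c9,t11-CLA from DMSO ran between -0.66 and 0.42 with a median of 0.03, and over the 130 lower genes between -0.40 and 0.61 with a median of 0.12. Of these 97 and 130 genes, 83 and 123 were also at least 2-fold apart between the isomers, and the smallest isomer difference in each set was 0.74 and -0.61. The direct differences between t10,c12-CLA and c9,t11-CLA were -3.69 for Thrsp, -3.51 for Gpd1, -3.42 for Retn, -1.85 for Scd1, -1.60 for Adipoq, 2.82 for Hmga2, 2.73 for Gsta2 and 2.02 for Ccl2. With 1 array for each isomer no interval of these differences can be given.

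The comparison was finally set beside that of ritonavir with ethanol, which comes from the first experiment and shares no array with it, although all 6 arrays stand in 1 table with medians between 6.54 and 6.56. Of the 130 genes at least 2-fold lower with t10,c12-CLA, 126 (96.9%) were lower with ritonavir than with ethanol, and 114 (87.7%) at least 2-fold lower, whereas 49.8% of all detected genes were lower with ritonavir and 6.39% at least 2-fold lower. Of the 97 genes at least 2-fold higher with t10,c12-CLA, 81 (83.5%) were higher with ritonavir and 60 (61.9%) at least 2-fold higher, whereas 50.2% of all genes were higher and 4.56% at least 2-fold higher. Conversely, the 114 genes were 14.4% of those at least 2-fold lower with ritonavir, and the 60 were 10.6% of those at least 2-fold higher. Gpd1 had 7.12 on the ritonavir array and 12.94 on the ethanol array, Retn 7.89 and 14.47, Hmga2 10.85 and 8.95, and Ccl2 9.36 and 7.96.

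The relation was graded over all detected genes. In the 283 genes at least 4-fold lower with ritonavir, the median difference of t10,c12-CLA from DMSO was -0.64 and 90.5% lay below 0. In the 508 genes 2-fold to 4-fold lower it was -0.33, in the 11030 genes less than 2-fold apart 0.02, in the 488 genes 2-fold to 4-fold higher 0.25, and in the 77 genes at least 4-fold higher 0.68. For c9,t11-CLA minus DMSO the medians of the same 5 sets were 0.20, 0.12, 0.00, -0.07 and -0.10, the opposite order. Across the 12386 genes, which are not independent replicates, the correlation with ritonavir minus ethanol was 0.54 (Pearson) and 0.40 (Spearman) for t10,c12-CLA minus DMSO, and -0.33 and -0.30 for c9,t11-CLA minus DMSO.

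A few genes at least 2-fold apart in both comparisons ran in opposite directions, 8 in all. Of these, Dusp1, Pmepa1, Olr1, Ccl6 and Rassf2 were chosen for mention after their values were seen. Angptl4 was 1.13 higher with t10,c12-CLA and had 10.05 on the ritonavir array against 12.30 on the ethanol array. Prg4 was 2.64 higher with t10,c12-CLA and 2.18 lower with ritonavir, ending under the detection level there. The MAP kinase phosphatase gene Dusp1 (1.32 against -1.50), the TGF-beta response gene Pmepa1 (1.53 against -1.50), Gprin3 (1.39 against -1.83) and Olr1 (1.18 against -2.29) were likewise higher with t10,c12-CLA and lower with ritonavir, although Olr1 differed with t10,c12-CLA by only 0.15 when values were raised to the detection level. The chemokine gene Ccl6 was lower with t10,c12-CLA (-1.62) and higher with ritonavir (1.86), as was Rassf2 (-1.14 and 1.07).

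**Figure D5:**
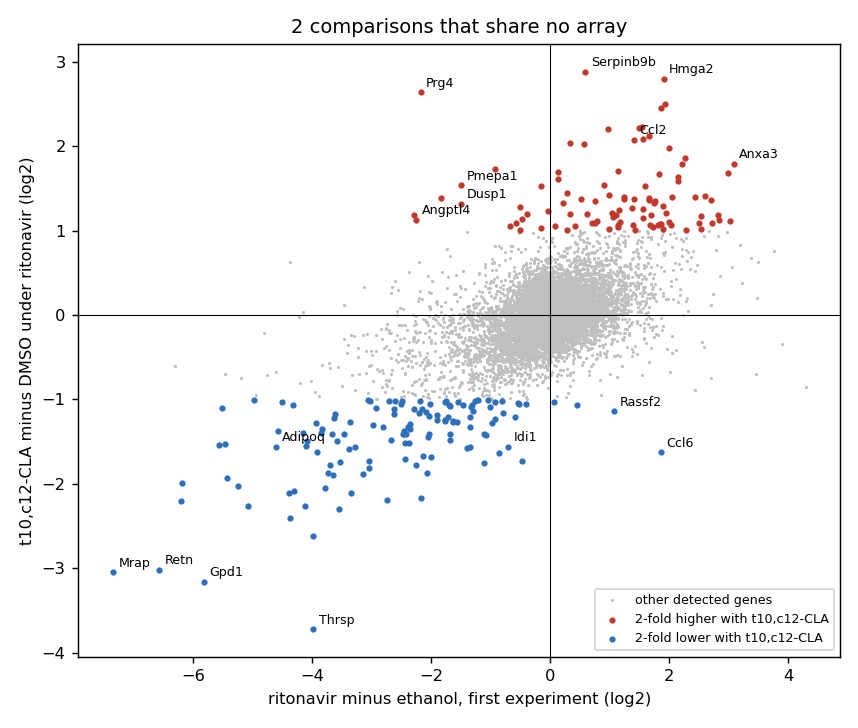
Difference of t10,c12-CLA from DMSO under ritonavir (log2, vertical axis) against that of ritonavir from ethanol in the first experiment (log2, horizontal axis) for 12386 detected genes, each from 1 pair of arrays. Of the 130 blue genes 126 lie left of 0, and of the 97 red genes 81 lie right of 0.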

How the data were processed

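RNA of 4 pooled replicate experiments per group was labelled and hybridised to 1 Affymetrix array per group, per the labels. The authors deposited log2 values; per the submitters' processing notes these are RMA values from Affymetrix Expression Console, for which no version is named. RMA equalises the arrays' distributions, so a shift shared by most genes would not be seen.

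The deposited table holds 45101 probe sets, of which 34958 were named with 1 gene symbol by the platform annotation, updated by gene identifier, 932 with several, left out, and 9211 with none listed. Of 18194 genes, each read from the probe set brightest on average over all 6 arrays, 12386 reached the table's median, 6.55, on at least 1 array. The table has no detection calls, so that level is a convention; where a value lay under it, a fold is given against the level as "at least".

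Log2 differences were taken, genes at least 2-fold and 1.5-fold apart counted, and 33 gene lists described by counts and medians. With 1 array per group there is no test, and precision is limited by the number of arrays. The genes named are the 15 per direction with the largest difference among those 2-fold apart and above the level on both arrays, up to 6 per direction with 1 value under it, a fixed set of adipocyte, lipid, stress and inflammation genes, and list members that were highest, lowest or at least 1.5-fold apart. Dlk1, Srebf2, Cd14, Csf1r, Lyz2 and the genes opposite to ritonavir lie outside this rule and were named after their values were seen. The comparison, lists and rule were chosen with earlier results of these data known. Promoter sequences are from RefSeq, GRCm38.p6. Counting was tested on simulated data. Python 3.11.15, numpy 2.4.6, pandas 2.3.3, statsmodels 0.14.6 and matplotlib 3.10.9 were used.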

Additional observations from a re-analysis of the deposited data

How the results depend on the processing

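The main counts for t10,c12-CLA against DMSO were 97 genes at least 2-fold higher and 130 lower. They became 72 and 109 with a gene's probe sets averaged, 80 and 109 with only probe sets without cross-hybridising suffixes, 104 and 133 without a filter on low values, 70 and 111 with a stricter filter at 8.77, and 88 and 115 after raising low values to the detection level. After quantile normalization again they were 102 and 127, after a lowess correction for expression level (span 0.3) they were 93 and 137, and after centring 92 and 138. Against the mean of the c9,t11-CLA and DMSO arrays they were 109 and 154, and against the c9,t11-CLA array alone 118 and 189. A 1.5-fold threshold gave 385 and 491 genes, and a 3-fold threshold 24 and 37. No named gene 2-fold apart changed sign under the 8 alternatives run on the named genes (probe set choice, filters, raising and normalization). Among those less than 2-fold apart, Fabp4 (0.04 against -0.30) and Rarres2 (0.23 against -0.62) changed sign with only probe sets without cross-hybridising suffixes, and Des (0.36 against -0.10) with averaged probe sets. The list medians that changed sign under any of them lay between -0.06 and 0.09 in the main setting. With the mean of probe sets, 90 of the 95 named genes 2-fold apart were still detected. Of these 90, 15 were under 2-fold, among them Fdft1 (-0.33), Klb (-0.42), Acta2 (0.49), Lipe (-0.49), Inhbb (-0.62), Inhba (0.64), Lox (0.72), Msmo1 (-0.73) and Car3 (-0.86). Averaging took in every probe set of a gene, also those under the detection level on both arrays. Klb, Acta2, Lipe, Inhba, Msmo1 and Pfkfb3 each had only 1 probe set that reached the level on either array. No paired analysis was possible because each group has 1 array. For the same reason no array could be left out. Differences of genes near the detection level are limited by signal over background.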

Other observations

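Probe sets without a gene name in the annotation used were not part of the comparison. Of 2396 such probe sets that reached the detection level, 13 lay 2-fold or more above DMSO with t10,c12-CLA and 24 as far below, together 1.54%, against 1.83% of the named genes. Their differences ran between -3.49 and 2.52. A further 7 of the 130 named lower genes have clone or accession symbols and were counted only.

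Among 228 named genes, 94 had more than 1 detected probe set, and 5 of these had a probe set of opposite sign. In 2 of them, Fdft1 and Inhbb, the gene itself was at least 1.5-fold apart.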
